A study of Homo sapiens with 6 samples.

Results

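Metallothioneins are small cysteine-rich proteins of the cytoplasm and nucleus that bind zinc and copper, and in humans their genes stand in a cluster on the long arm of chromosome 16. The 6 genes described are MT1E, MT1F, MT1G, MT1M, MT1X and MT2A, the listed metallothionein genes of this cluster, taken by name and not by their measured values. The deposited table listed 4 of the 6, namely MT2A, MT1E, MT1X and MT1F, among 19198 genes. Each of the 4 was among the 16988 genes tested. MT1G and MT1M are not analysed here.

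The expression of metallothionein genes is known to be raised by zinc and other metals through the metal-responsive transcription factor MTF1, which binds short metal response elements in their promoters, and by glucocorticoid hormones through the glucocorticoid receptor, which NR3C1 encodes. The proteins buffer free zinc, lend zinc to other proteins, and bind cadmium and copper, and MT2A is the main form in many human epithelial cells. Because the genes arose by duplication and have left processed pseudogenes elsewhere in the genome, short reads from one copy can match another.

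The study followed MCF10A, an immortal line of human mammary epithelial cells from fibrocystic breast tissue, through the epithelial to mesenchymal change that accompanies loss of growth factors, and RNA-Seq was made from 6 samples. The 3 control samples were grown with 5% horse serum, insulin at 10 µg/ml, EGF at 20 ng/ml, cholera toxin at 100 ng/ml and hydrocortisone, a glucocorticoid, at 0.5 µg/ml. The 3 depleted samples were grown with 5% horse serum and none of these 4 agents. All 4 agents were withdrawn together, so the effect of hydrocortisone and that of the other 3 cannot be told apart, and the zinc in the medium was not among the measurements. The day of sampling is not given for these libraries. The samples are called control replicates 1 to 3 and depleted replicates 1 to 3 by the numbers in their labels. The labels do not say that replicates were separate cultures, so the p-values measure only the spread between these samples. The labels number 3 samples in each condition, which were taken as n = 3, while the design text of the series speaks of 2 replicates and 6 in all. In bulk RNA, fewer cells of a type and less RNA per cell cannot be told apart.

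The deposited values are read counts per gene divided by a size factor for each library, called normalized counts here, and each value could be turned back into whole reads. Libraries held between 7472418 reads on genes, in depleted replicate 3, and 28672630, in control replicate 2. A count of 3 reads, taken as the floor, corresponded to 1.76 to 6.71 normalized counts. The labels call the cells luminal ductal cells. Markers of both mammary layers were present, with luminal KRT8 between 2442 and 19305 normalized counts and basal KRT5 between 562 and 38503. Of the basal markers TP63, a transcription factor of basal cells, fell by 4.18 on the log2 scale (adjusted p = 0.0270), and of the luminal markers the keratin KRT19 fell by 2.31 (adjusted p = 0.0196). The other 4 basal and 6 luminal markers tested were not called, and their estimates went both ways. The lowest were KRT6B at -3.38 and ESR1 at -2.99, while KRT14 was at 2.69, KRT17 at 2.44 with every depleted sample above every control, KRT18 at 1.17 and KRT8 at 1.10. Depleted replicate 1 stood apart from depleted replicates 2 and 3 in such markers, with 562 normalized counts of KRT5 against 10908 and 14997, and the result of each of the 4 genes is given below without it too. Of markers of other cells, the leukocyte gene PTPRC lay between 0 and 1.97 normalized counts in controls and between 10.1 and 13.8 in depleted samples. Its mean was below the 10 normalized counts needed for testing. Without that filter it was called higher, 1 of 1319 genes called. CD14 and LYZ were not called, at -1.53 and -1.09. CD3E is not analysed here. Among endothelial markers the cadherin CDH5 rose from 4.10 to 8.77 normalized counts in controls to between 25.6 and 119 in depleted samples (adjusted p = 0.0282). VWF lay between 0.586 and 3.93 in controls and between 2.75 and 13.4 in depleted samples, also below the mean needed for testing. Neither PECAM1 at 0.09 nor KDR at -3.83 was called. The adipocyte gene PLIN1 was at -1.76 and was not called. Without control replicate 1 none of TP63, KRT19 and CDH5 was called. TP63 was also not called without control replicate 2 or depleted replicate 3, nor KRT19 without depleted replicate 2 or 3. CDH5 was not called without control replicate 2, depleted replicate 2 or depleted replicate 3. The part of these shifts in the metallothionein levels was not tested.

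Sequences were taken for the genes on which the results turn. RefSeq promoters, each running from 250 bases before to 50 bases after the start of transcription, were at hand for MT2A and MT1X on GRCh38.p14, 2 of the 6 genes, and are shown because this stretch holds the metal response elements. MT2A lies on the plus strand with its promoter at chr16:56608334-56608633, and MT1X on the plus strand with its promoter at chr16:56682220-56682519. Capitals mark matches to the core of the metal response element, TGCACNC or TGCGCNC, on either strand.
MT2A: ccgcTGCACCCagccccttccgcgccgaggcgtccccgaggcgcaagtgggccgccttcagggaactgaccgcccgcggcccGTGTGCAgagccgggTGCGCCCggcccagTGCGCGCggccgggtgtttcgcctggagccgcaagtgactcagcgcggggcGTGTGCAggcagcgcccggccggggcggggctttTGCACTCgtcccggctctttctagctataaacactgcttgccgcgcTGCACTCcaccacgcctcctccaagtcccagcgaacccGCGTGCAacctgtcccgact
MT1X: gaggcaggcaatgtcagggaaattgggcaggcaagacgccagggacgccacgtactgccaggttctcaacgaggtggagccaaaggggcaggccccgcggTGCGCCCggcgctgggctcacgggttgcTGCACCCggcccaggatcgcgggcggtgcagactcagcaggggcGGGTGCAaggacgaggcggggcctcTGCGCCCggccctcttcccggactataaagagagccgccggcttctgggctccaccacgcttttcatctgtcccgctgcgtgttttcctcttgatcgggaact
The MT2A promoter held 8 matches to the core and the MT1X promoter 4, with no match overlapping another. At least 1 match was found in 29.6% of the 35116 promoters of the same length, at least 4 in 0.601% and at least 8 in 0.0199%. The half-site of the glucocorticoid response element, TGTTCT on either strand, had 0 matches in both promoters, while 14.8% of all promoters held one. A match is a string of letters and not a shown binding site, and its absence says only that these letters are not in the window. The promoters of MT1E, MT1F, MT1G and MT1M are named only.

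**Figure D1:**
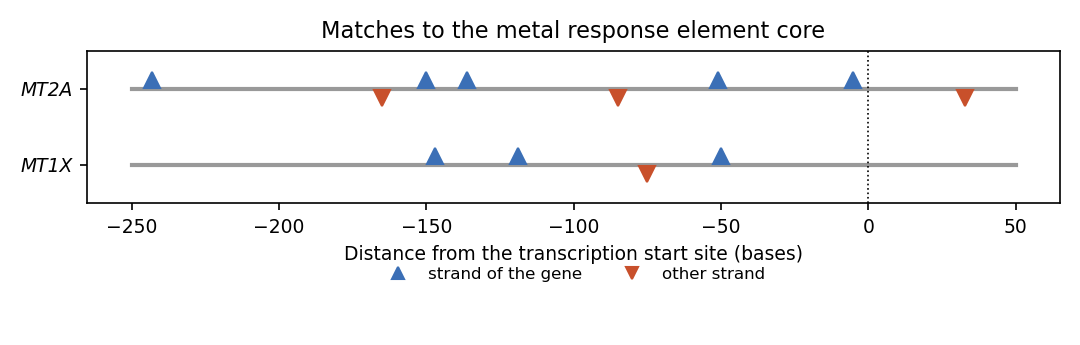
Positions of matches to the metal response element core in the promoters of MT2A and MT1X, by distance in bases from the transcription start site (dotted line), with upward triangles for the strand of the gene and downward triangles for the other strand. MT2A shows 8 matches and MT1X 4, and most of them lie before the start site.

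The other sequence that bears on the measurements is the coding sequence of MT2A beside its processed pseudogene MT2P1, an intronless copy on another chromosome. The MT2A coding sequence of 186 bases, in hg38 with Gencode v44 annotation, is split over 3 exons between chr16:56608656-56609354, and MT2P1 is a single block of 183 bases at chr4:68376323-68376505, both on the plus strand. Capitals mark the bases at which they differ.
MT2A: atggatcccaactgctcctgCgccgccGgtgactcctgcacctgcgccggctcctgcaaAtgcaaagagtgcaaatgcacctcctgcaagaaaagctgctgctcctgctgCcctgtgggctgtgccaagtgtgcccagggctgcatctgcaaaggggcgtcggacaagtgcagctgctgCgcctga
MT2P1: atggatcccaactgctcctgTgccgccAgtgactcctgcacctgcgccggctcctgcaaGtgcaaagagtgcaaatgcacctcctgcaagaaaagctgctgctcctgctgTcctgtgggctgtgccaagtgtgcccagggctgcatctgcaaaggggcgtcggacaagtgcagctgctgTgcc
They differed at 5 of 183 aligned bases, an identity of 97.3%. MT1X and its pseudogene MT1XP1, at chr1:16241213-16241398 on the minus strand, differed at 7 of 186 bases. Between the 6 metallothionein genes themselves the identity of the coding sequences ran from 88.7%, for MT1F and MT1X, to 95.2%, for MT1G and MT2A. Copies were also compared by taking every window of 100 bases, the read length here, of each gene's transcript. Each was searched in the genome, hg38, for another place with at most 2 mismatches. A window across an exon junction could hardly match a copy with introns in such a search, so likeness between spliced metallothionein RNAs was covered only in part. For MT2A 73 of 302 windows had such a place, each of them at MT2P1, and 66 of the 73 crossed an exon junction of MT2A. For MT1X 53 of 305 windows matched MT1XP1. For MT1E 106 of 647 windows matched elsewhere in the cluster, 61 of them at MT1M and 41 at the pseudogene MT1JP, and 28 were identical to another place. MT1F had 0 of 326 windows with a match elsewhere, but 165 of the 326 crossed an exon junction.

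MT2A was the most abundant metallothionein RNA in these cells, MT1E the next, and MT1X and MT1F were far lower. None of the 4 passed the test for a difference between control and depleted samples. MT2A varied more among the 3 control samples than between the groups. Of 15 other genes known to be induced by glucocorticoids, 5 were called lower, beside 1.97% of all genes tested, and 10 were not called. These 15 were chosen with earlier results of these data known, so the count is a description. Only 3 of the 15 were called lower when control replicate 1, control replicate 2, depleted replicate 2 or depleted replicate 3 was left out. In these fits 3.73%, 3.97%, 2.67% and 2.75% of all genes tested were called in either direction.

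MT2A (ENSG00000125148, chr16:56608584-56609497, plus strand, 3 exons, a transcript of 401 bases) encodes the predominant metallothionein. Its normalized counts were 718, 4250 and 2352 in control replicates 1 to 3, and 3279, 1879 and 2135 in depleted replicates 1 to 3. The lowest and the highest of the 6 values were both controls, and the depleted samples lay between them. Between 573 reads (control replicate 1) and 7255 reads (control replicate 2) lay behind these values, so counting error was small beside the spread between samples. The mean was 2440 ± 1768 normalized counts in controls and 2431 ± 745 in depleted samples (SD, n = 3 each). The log2 fold change of depleted over control samples was 0.29 ± 0.60 (SE), with a 95% interval from -1.07 to 1.65 (limma, adjusted p = 0.846). The interval holds a fall of more than 2-fold and a rise of more than 2-fold. Without control replicate 1 the log2 fold change turned to -0.42 (adjusted p = 0.705), and without depleted replicate 1 it was 0.05 (adjusted p = 0.981).

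The spread of MT2A among controls, an SD of 1.31 on the log2 scale, was larger than that of 88.4% of the genes tested, while in depleted samples the SD was 0.42, larger than that of 59.9%. The median SD over all genes tested was 0.60 in controls and 0.35 in depleted samples. Libraries differed in how their values moved with transcript length, with a Spearman correlation across 13035 genes of -0.36 in control replicate 2 and 0.34 in control replicate 3, and genes are not independent replicates. After correction for transcript length and GC content the MT2A values were 733, 3296 and 3707 in controls and 3000, 2079 and 1691 in depleted samples. Control replicate 1 was the lowest of the 6 before and after this correction.

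MT1E (ENSG00000169715, chr16:56625475-56627112, plus strand), a type 1 metallothionein known from epithelial cells, had 584, 1311 and 1024 normalized counts in controls and 957, 896 and 944 in depleted samples. The depleted samples were close to each other and lay inside the range of the controls. Their SD of 0.05 on the log2 scale was among the smallest measured, with 1.77% of the genes tested having a smaller one, against an SD of 0.60 in controls. After correction for transcript length and GC content the depleted values were 912, 996 and 806, with an SD of 0.15 that was larger than that of 19.0% of the genes tested, so the closeness depended on the processing. The log2 fold change was 0.01 ± 0.34 (SE), with a 95% interval from -0.76 to 0.79 (limma, adjusted p = 0.990). In this fit the interval excludes a change of 2-fold in either direction. The SE was larger in others, 0.42 with the replicate number as a block and 0.40 to 0.43 with a depleted sample left out. Without control replicate 1 the log2 fold change was -0.31 (adjusted p = 0.696), and without depleted replicate 1 it was -0.0046 (adjusted p = 0.997). The estimate sat so near 0 that its sign changed between settings.

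MT1X (ENSG00000187193, chr16:56682470-56684196, plus strand, a transcript of 404 bases), a further type 1 metallothionein, was measured at 86.5, 54.5 and 121 normalized counts in controls and 70.5, 95.1 and 89.4 in depleted samples. The groups overlapped over the whole depleted range. Its log2 fold change was 0.02 ± 0.44 (SE), with a 95% interval from -0.99 to 1.04 (limma, adjusted p = 0.987). Without control replicate 2 it was -0.28 (adjusted p = 0.825), without depleted replicate 1 it was 0.15 (adjusted p = 0.927), and here too the sign changed between settings. A long non-coding gene on the same strand (ENSG00000259827) overlaps MT1X in Gencode v44, and reads of both cannot be assigned with certainty.

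MT1F (ENSG00000198417, chr16:56657731-56660698, plus strand, a transcript of 425 bases), a type 1 metallothionein of low abundance here, had 23.8, 38.7 and 25.6 normalized counts in controls and 20.1, 94.4 and 76.0 in depleted samples. Depleted replicates 2 and 3 lay above every control, and depleted replicate 1 below every control. The values rest on few reads, 19 in control replicate 1, 22 in depleted replicate 1 and 144 in depleted replicate 2. The log2 fold change was 0.86 ± 0.66 (SE), with a 95% interval from -0.64 to 2.36 (limma, adjusted p = 0.541). Without depleted replicate 1 the log2 fold change was 1.53 (adjusted p = 0.183), and it was not called there either. The SD of 1.18 on the log2 scale in depleted samples exceeded that of 93.3% of the genes tested.

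**Figure D2:**
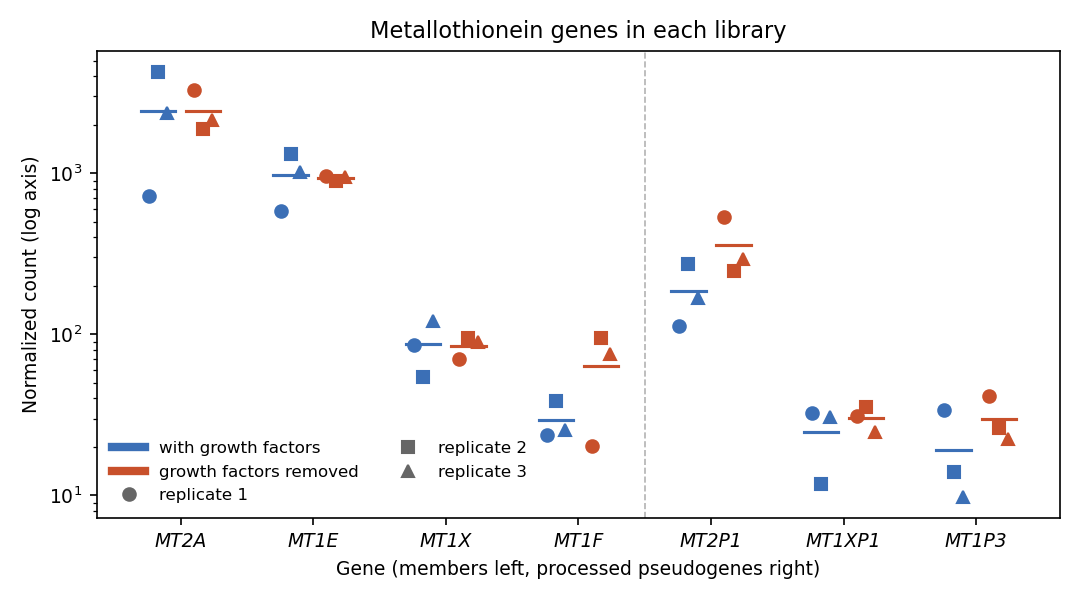
Normalized counts of the 4 metallothionein genes measured (left of the dashed line) and of 3 processed pseudogenes (right) in each library, on a log axis, with control samples in blue, depleted samples in orange, a marker shape for each replicate number and a horizontal line for the group mean. The groups overlap for every gene, and control replicate 1 is the lowest sample for MT2A (718) and MT1E (584).

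A gene was called where its adjusted p was under 0.05 and its change reached 2-fold. Of the 4 genes 0 were called, beside 6.33% of all genes tested. At an unadjusted p under 0.05, which 20.0% of all genes tested had by limma, the number was 0 by limma, 0 by edgeR and 0 by DESeq2, and the lowest adjusted p was 0.541, 0.378 and 0.339 by these tools, each for MT1F. For 0 of the 4 were the groups free of overlap, beside 25.6% of all genes tested. The median log2 fold change was 0.16 over the 4 genes and -0.03 over all genes tested, and the 4 values ran from 0.01 to 0.86. The share of all genes called was 5.72% by edgeR and 12.5% by DESeq2. By limma it was 3.73%, 3.97% and 14.6% without control replicates 1, 2 and 3, and 5.41%, 2.67% and 2.75% without depleted replicates 1, 2 and 3, and 0 of the 4 genes were called in each of these fits.

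The summed level of the 4 genes was 1412, 5655 and 3523 normalized counts in control replicates 1 to 3 and 4327, 2964 and 3244 in depleted replicates 1 to 3. The sum does not depend on how reads are split among these 4 copies. Among controls the highest sum was 4.0 times the lowest, and among depleted samples 1.46 times. The group means were 3530 ± 2121 and 3512 ± 719 normalized counts (SD, n = 3 each). On the log2 scale the depleted samples were higher by 0.19, against a pooled SD of 0.75, so the difference was smaller than the spread between replicates. Without control replicate 1 this difference was -0.37, and without depleted replicate 1 it was 0.03. As a share of the reads on genes, the 4 genes took between 77.6 CPM (95% Wilson interval 73.2 to 82.3), in control replicate 1, and 337 CPM (330.0 to 343), in control replicate 2, and the intervals cover counting error only.

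Levels were compared between genes per kilobase of transcript, since normalized counts are not divided by length. Per kilobase MT2A had 6085 ± 4408 normalized counts in controls and 6062 ± 1858 in depleted samples. MT1E had 1304 ± 491 and 1250 ± 43.4, with the transcript taken at 746 bases, the length of the form Gencode marks as canonical, which keeps an intron. MT1X had 216 ± 82.3 and 210 ± 31.9, and MT1F 69.1 ± 19.1 and 149 ± 91.0 (SD, n = 3 each). The order was the same in all 6 libraries. With that MT1E length MT2A exceeded MT1E by 2.29 to 6.37 times and MT1E exceeded MT1X by 3.66 to 13 times. In neither pair did the ranges of the levels meet, but MT2A at its lowest (1791) was barely above MT1E at its highest (1758). A shorter MT1E transcript would raise its levels per kilobase and could make the ranges of MT2A and MT1E meet. Other lengths were not tried. MT1X exceeded MT1F within each of the 6 libraries, by 1.06 to 4.98 times, while their ranges over the libraries overlapped.

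MT2A supplied 50.8% of the summed normalized counts in control replicate 1 and 63.4% to 75.8% in the other 5 libraries. The level of MT1E relative to MT2A, as a ratio of normalized counts, was 0.813, 0.308 and 0.435 in controls and 0.292, 0.477 and 0.442 in depleted samples. Control replicate 1 thus stood apart in the balance of these genes as well as in their sum. Over the 6 samples MT2A and MT1E had a Pearson r of 0.957 on the log2 scale, given as a description. MT1X with MT2A was at -0.46 and MT1F with MT2A at 0.05, over the same 6 libraries and scaling.

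The table listed 3 further metallothionein genes, each a processed pseudogene. MT2P1 (ENSG00000162840) had 113, 274 and 167 normalized counts in controls and 533, 248 and 293 in depleted samples. Depleted replicate 1 was its highest sample, and the groups overlapped. The log2 fold change was 0.96 ± 0.45 (SE) with a 95% interval from -0.06 to 1.99 (limma, adjusted p = 0.283). MT1XP1 (ENSG00000233929) lay between 11.7 and 35.4 normalized counts, with a log2 fold change of 0.38 (adjusted p = 0.776). MT1P3 (ENSG00000229230, chr20:35218009-35218185, plus strand) lay between 9.84 and 41.2, with a log2 fold change of 0.75 (adjusted p = 0.583). Thus 0 of the 3 were called, beside 6.33% of all genes tested, and 0 had an unadjusted p under 0.05 by limma, beside 20.0%. edgeR and DESeq2 gave adjusted p-values of 0.264 and 0.221 for MT2P1. MT1A, MT1H, MT3, MT4 and the 8 other metallothionein genes and pseudogenes looked for are not analysed here.

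Reads counted on a pseudogene may stem from its parent gene, so their share was followed in each library. Of the reads counted on MT2A or MT2P1, the share on MT2P1 was 13.6% (95% Wilson interval 11.2 to 16.4), 6.05% (5.54 to 6.6) and 6.64% (5.74 to 7.67) in control replicates 1 to 3. In depleted replicates 1 to 3 it was 14% (13 to 15.1), 11.7% (10.6 to 12.8) and 12.1% (10.3 to 14.1). Controls 2 and 3 lay below every depleted sample beyond counting error, and control replicate 1 lay among the depleted samples. The means were 8.75% ± 4.19 and 12.6% ± 1.24 (SD, n = 3 each; exact two-sided permutation p = 0.3, where the smallest possible with 3 against 3 is 0.1). The share of MT1XP1 among reads on MT1X or MT1XP1 was 27.4%, 17.7% and 20.1% in controls and 30.6%, 27.1% and 21.6% in depleted samples (exact two-sided permutation p = 0.3). Both p-values were 0.3 after adjustment over these 2 shares. With the pseudogene reads added to their parents, an alternative chosen after seeing the data, the log2 fold change was 0.35 for MT2A and 0.11 for MT1X, and neither was called.

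**Figure D3:**
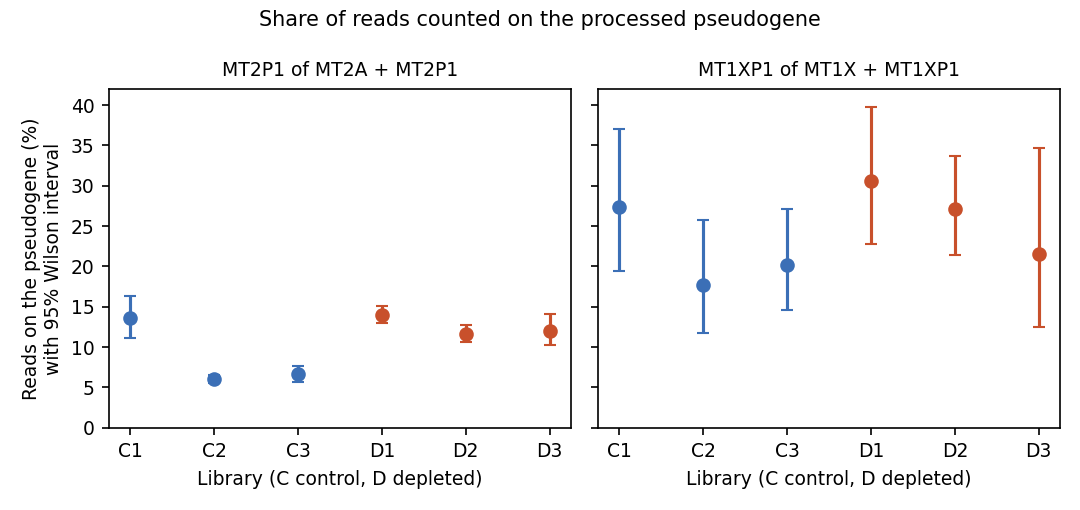
Share of reads counted on the processed pseudogene, in percent of the reads on parent and pseudogene together, for each control (C) and depleted (D) library, with 95% Wilson intervals that cover counting error only. For MT2P1 the share lies at 6.05% and 6.64% in controls 2 and 3 and between 11.7% and 14% in the other 4 libraries, while for MT1XP1 the intervals are wide and overlap.

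The medium of the depleted samples lacked hydrocortisone, and with it insulin, EGF and cholera toxin, so their effects cannot be told apart. Some other genes known to be induced by the glucocorticoid receptor differed between the groups. Of 15 such genes 5 were called lower, beside 1.97% of all genes tested, and 0 were called higher, with a median log2 fold change of -0.94. The list was chosen with earlier results of these data known, so these counts are a description. The estimate was below 0 for 12 of the 15 and above 0 for 3. FKBP5, a co-chaperone of the receptor, had 13484, 10934 and 3840 normalized counts in controls and 611, 610 and 512 in depleted samples, and fell by 3.84 ± 0.46 on the log2 scale (SE; limma, adjusted p = 0.00268). The transcription factor ZBTB16 fell by 5.87 (adjusted p = 0.00115), the monoamine oxidase MAOA fell by 4.44 (adjusted p = 0.00278) and the clock gene PER1 fell by 2.40 (adjusted p = 0.0364). The fifth was BIRC3, an inhibitor of apoptosis. The other 10 were not called. Among them were the 3 with estimates above 0, SGK1 at 0.38, ERRFI1 at 0.10 and CRISPLD2 at 3.1. CRISPLD2 had 15.0, 58.0 and 22.6 normalized counts in controls and 12.8, 1278 and 800 in depleted samples. The rest of those not called had estimates below 0, the lowest being TSC22D3 at -1.40 and KLF9 at -1.38. By DESeq2 7 were called lower and 1 higher, and limma called 5 lower and 1 higher without depleted replicate 1. In either direction, 12.5% and 5.41% of all genes tested were called in these fits. When control replicate 1, control replicate 2, depleted replicate 2 or depleted replicate 3 was left out, 3 were called lower. The shares of all genes tested called in either direction were then 3.73%, 3.97%, 2.67% and 2.75%. FKBP5 and the other genes named as lower were picked because they were called, and do not stand for all targets. Over the 6 samples MT2A and FKBP5 had a Pearson r of -0.26 on the log2 scale.

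**Figure D4:**
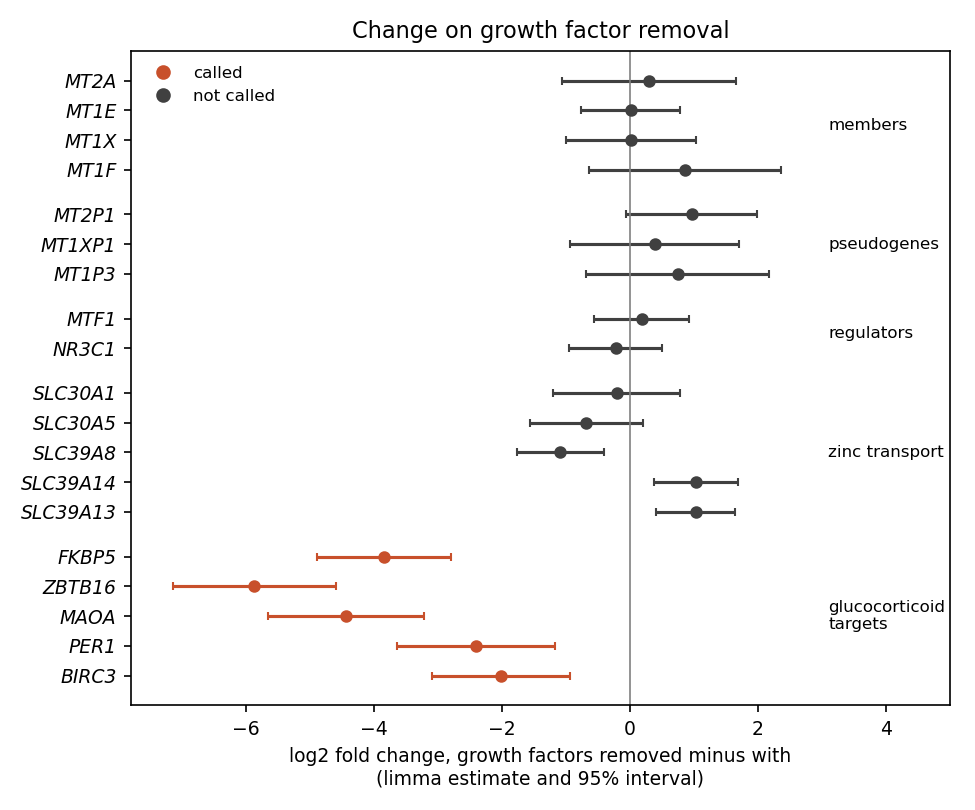
Log2 fold change of depleted over control samples (limma estimate with its 95% interval) for the metallothionein genes, their pseudogenes, regulators, zinc transporters and the 5 of 15 glucocorticoid receptor targets that were called, with called genes in orange and genes not called in grey. The intervals of MT2A, MT1E, MT1X and MT1F include 0. FKBP5, ZBTB16, MAOA, PER1 and BIRC3 were drawn because they were called lower, so their intervals had to lie below 0. The targets not called are not drawn.

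The known regulators of metallothionein genes were measured as well. MTF1, the zinc sensor that binds metal response elements, had 321, 342 and 482 normalized counts in controls and 491, 494 and 322 in depleted samples, with a log2 fold change of 0.19 ± 0.32 (SE; limma, adjusted p = 0.813). NR3C1, the glucocorticoid receptor gene, had 3898, 3650 and 5131 normalized counts in controls and 4912, 3251 and 2862 in depleted samples, with a log2 fold change of -0.23 ± 0.32 (SE; adjusted p = 0.763). Both sets of values overlapped between the groups. Of the 8 regulators on the list 0 were called, and 0 had an unadjusted p under 0.05 by limma, while edgeR and DESeq2 called 0 too. Of all genes tested 6.33% were called by limma, 5.72% by edgeR and 12.5% by DESeq2, and 20.0% had such an unadjusted p. The 2 with the largest estimates were NFE2L2, the master regulator of the oxidative stress response, at -0.42 (adjusted p = 0.484), and the heat shock factor HSF1, at -0.39 (adjusted p = 0.529).

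Zinc enters the cytoplasm through the SLC39A transporters and leaves it through the SLC30A transporters. SLC30A1, the exporter of the plasma membrane and itself a known target of MTF1, had 2998, 2189 and 1248 normalized counts in controls and 1604, 2829 and 1169 in depleted samples. The groups overlapped, and the log2 fold change was -0.21 ± 0.43 (SE; limma, adjusted p = 0.849). Of the 6 exporters tested 0 were called by limma, edgeR or DESeq2 and 0 had an unadjusted p under 0.05, and the largest estimates were -0.68 for SLC30A5 (adjusted p = 0.385) and -0.39 for SLC30A9. Of the 11 importers tested 0 were called by limma and 0 by edgeR, 3 were called by DESeq2, 1 was called by limma without control replicate 3, and 3 had an unadjusted p under 0.05 by limma. Over all genes tested the shares were 6.33% for limma, 5.72% for edgeR, 12.5% for DESeq2 and 20.0% for the unadjusted p. Without control replicate 3 the limma share was 14.6%. The groups did not overlap for 6 of these 11, with every depleted sample higher for 3 and lower for 3, beside the share of 25.6% over all genes tested. SLC39A8, an importer of zinc and manganese, had 2330, 1700 and 2709 normalized counts in controls and 1285, 866 and 999 in depleted samples, a log2 fold change of -1.09 ± 0.30 (SE; adjusted p = 0.0709). SLC39A14, a related importer of zinc, iron and manganese, had 1921, 1312 and 1368 in controls and 2602, 3613 and 3133 in depleted samples, a log2 fold change of 1.03 ± 0.29 (SE; adjusted p = 0.0739). SLC39A13, a zinc transporter of the secretory pathway, was at 1.03 ± 0.27 (SE; adjusted p = 0.0651) and was chosen after its values were seen.

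The genes whose level followed that of the metallothioneins most closely over the 6 samples were sought among 11685 genes whose mean reached 100 normalized counts, by Pearson r on the log2 scale. For MT2A the 5 closest were IER5, GATD1, SLC19A1, ARHGEF1 and DCAF15, with r from 0.982 down to 0.960. Among the closest to MT1E were GATAD2A, SLC19A1, MPRIPP1 and RBM19, with r from 0.985 down to 0.95. SLC19A1, the reduced folate carrier, was on both lists. IER5, an immediate early response gene, had 465, 1610 and 1001 normalized counts in controls and 1353, 746 and 885 in depleted samples, with control replicate 1 the lowest and control replicate 2 the highest of the 6, the same extremes as for MT2A. None of these 8 genes was called, with log2 fold changes from -0.04 to 0.19. With 6 points that share library, depth and scaling, high values of r are found by search among so many genes, and these are descriptions.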

How the data were processed

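RNA-Seq was analysed for 6 MCF10A samples, 3 with growth factors and 3 without, grouped by their labels. The authors prepared stranded libraries from total RNA freed of ribosomal RNA and read 100 bases from 1 end. Reads were aligned by TopHat2 on hg38, assigned to Gencode v22 genes by HTSeq, and scaled by the size factors of DESeq2. The submitters' processing notes list cutadapt 1.6, HTSeq 0.6, DESeq2 1.8.1 and R 3.2.0. The deposited values are therefore a normalized signal per gene, not divided by length, and how reads that match several places were treated is not given in the sources used here. Every value was a whole multiple of the value of 1 read (100% of values within a tolerance of 0.01), so whole reads were recovered, and 0 columns lacked a sample. Each of the 19198 genes listed had at least 3 reads in at least 3 samples. Symbols and coordinates came from Gencode v44, which names 18913 of the identifiers.

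For genes whose mean reached 10 normalized counts, limma 3.58.1 in R 4.3.3 (lmFit, then eBayes with its trend option) was run on log2(normalized count + 1), which understates changes of low genes. Calls needed 2-fold or more and, after Benjamini-Hochberg adjustment over all 16988 genes, a p under 0.05. edgeR 4.0.16 (quasi-likelihood, TMM) and DESeq2 1.42.0 on the recovered reads, other pseudocounts, filters, scalings and thresholds, limma without the trend, a length and GC correction, the replicate number as a block, and each sample left out in turn were alternatives. The limma procedure was also run on simulated counts, with the outcome not reported here. The simulated libraries did not differ in how values moved with transcript length, so the simulation does not cover that feature of these libraries. Windows were searched with blastn 2.17.0, and single values were tested with scipy 1.17.1. Depth limits the low genes most, with a floor of 3 reads per library.

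The genes named are every metallothionein listed, MTF1, NR3C1 and SLC30A1, from each other list (zinc exporters, zinc importers, regulators, copper handling, oxidative and heavy metal stress, glucocorticoid receptor targets and cell type markers) up to 4 called genes or, with fewer than 2 called, the 2 with the largest estimates, and the 5 genes most like MT2A and MT1E, of which 1 is not reported here. Other genes named were chosen after their values were seen. The members and lists were chosen with earlier results of these data known.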

Additional observations from a re-analysis of the deposited data

How the results depend on the processing

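Of 250 values recomputed under alternatives, 29 counts moved beyond the limit set for counts and 15 estimates of single genes changed sign. The other 206 stayed within their limits, which for the summed level was the spread between replicates, and within it the sum changed sign once, to -0.37 without control replicate 1. The number of metallothionein genes called was 0 in all 20 alternatives in which it was computed. MT1F was not tested with a mean of at least 50. The log2 fold change of MT1E became -0.020 with edgeR, -0.050 with DESeq2 and -0.081 with the length and GC correction, with or without the replicate block, and ran from -0.31 to 0.27 with a sample left out. That of MT1X became -0.19 with quantile normalization, -0.0008 with edgeR, -0.029 with DESeq2 and -0.12 with the length and GC correction, with or without the replicate block, and ran from -0.28 to 0.29 with a sample left out. That of MT2A ran from -0.42 (without control replicate 1) to 0.86 (without control replicate 2) with a sample left out and from 0.01 to 0.38 otherwise, and the summed level from -0.37 to 0.64 and from 0.01 to 0.31. MT1F ran from 0.44 to 1.53 with a sample left out. The number of genes called, 1076, was 2112 with DESeq2, 418 at an adjusted p under 0.01, 1706 at one under 0.1, 702 with the length and GC correction and the replicate block, and 453 to 2474 with a sample left out, the lowest without depleted replicate 2 and the highest without control replicate 3. It was 634 without control replicate 1, 675 without control replicate 2 and 467 without depleted replicate 3. Glucocorticoid receptor targets called were 8 with DESeq2, 3 without the trend, 3 at an adjusted p under 0.01, and 3 to 6 with a sample left out, 1 of the 8 with DESeq2 being higher. Zinc importers called were 1 after rescaling to the same total, 1 with quantile normalization, 3 with DESeq2, 3 at an adjusted p under 0.1, and 0 to 1 with a sample left out. Copper genes called were 1 with DESeq2 and 0 to 1 with a sample left out, and stress genes 1 with the replicate block, 1 with the correction and the block, 4 with DESeq2, 2 at an adjusted p under 0.1 and 0 to 3 with a sample left out. The cause of these shifts was not tested.

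The labels do not say whether same-numbered samples were paired. Their deviations from the group means correlated at -0.07, -0.28 and -0.32. These values cannot settle it, since differently numbered samples were not set beside them. With the replicate block 967 genes were called, and MT2A kept its log2 fold change of 0.29 (adjusted p = 0.896). Where a sample was left out, the remaining pair carried its group. Depth limits MT1F, MT1XP1 and MT1P3 most.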

Other observations

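Metallothioneins also bind copper, and genes of copper handling were measured beside them. Of 9 tested, 0 were called by limma and 0 by edgeR, 1 was called by DESeq2, 1 by limma without depleted replicate 1, and 2 had an unadjusted p under 0.05 by limma. Over all genes tested the shares were 6.33% for limma, 5.72% for edgeR, 12.5% for DESeq2 and 20.0% for the unadjusted p. Without depleted replicate 1 the limma share was 5.41%. The low-affinity copper transporter gene SLC31A2 had 197, 128 and 104 normalized counts in controls and 166, 561 and 792 in depleted samples, a log2 fold change of 1.6 ± 0.58 (SE; adjusted p = 0.165), and depleted replicate 1 lay within the range of the controls. The copper-exporting ATPase ATP7B was at -0.99 ± 0.41 (SE; adjusted p = 0.218). The median log2 fold change over the list was -0.15, beside -0.03 over all genes tested.

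Of 14 genes of the response to oxidative and heavy metal stress that were tested, 0 were called by limma and 0 by edgeR, 4 were called by DESeq2, 3 by limma without control replicate 3 and 1 without depleted replicate 1, and 5 had an unadjusted p under 0.05 by limma, beside 12.5%, 14.6%, 5.41% and 20.0% of all genes tested. By limma and edgeR with all samples the shares called over all genes tested were 6.33% and 5.72%. The stress genes did not move one way. Heme oxygenase HMOX1, which heavy metals are known to induce, had 87.7, 118 and 65.9 normalized counts in controls and 135, 665 and 456 in depleted samples, so that every depleted sample was above every control (log2 fold change 1.95 ± 0.59 SE; adjusted p = 0.0997). SLC7A11, the cystine importer that feeds glutathione synthesis, had 2050, 740 and 501 in controls and 433, 241 and 78.3 in depleted samples, every one below every control (log2 fold change -2.17 ± 0.70 SE; adjusted p = 0.117).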
